A study of Macaca mulatta with 12 samples.

Results

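CD11c+ MBC 1 is the name the study's authors gave to a memory B cell subtype in the blood of rhesus macaques, and it was the larger of their 2 subtypes named for CD11c. Its members were the cells that the deposited cell table annotates as CD11c+ MBC 1, which came to 2236 of 13849 cells in all and of 13324 cells annotated as B cells. The animals were 2 male and 4 female rhesus macaques of Indian origin, juveniles 2 to 3 years old, described as healthy and not manipulated before the bleed, which was done under ketamine alone or with dexmedetomidine. Blood mononuclear cells of each animal gave 1 droplet library of 5′ gene expression and 1 library of B cell receptor contigs. There was no treatment arm. The males were processed in batch 1 and the females in batch 2, so sex and batch cannot be told apart.

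CD11c is integrin alpha X, encoded by ITGAX, and pairs with the beta 2 chain encoded by ITGB2. B cells that carry it are known in mice and humans as atypical, age-associated or T-bet+ B cells, and they often have low levels of the complement receptor CD21. A B cell starts out with IgM and IgD of unmutated variable regions. Activation-induced deaminase can then exchange the constant region, which is class switching, and can introduce point mutations in the variable region, which is somatic hypermutation.

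The number of members was 413 in male 1, 430 in male 2, 316 in female 1, 372 in female 2, 647 in female 3 and 58 in female 4. As a share of the B cells of an animal they averaged 16.3% ± 5.12 (SD, n = 6). Female 4 gave the lowest share, 10.3% with a 95% exact binomial interval of 7.92% to 13.1%, and female 2 the highest, 23.3% (21.3% to 25.5%). These intervals cover counting error only. Libraries held 3642517 to 20023015 UMIs, and the members 325429 to 4207758 UMIs per animal. Their median UMI count per cell averaged 5345 ± 1255 over animals, against 5485 ± 1122 in the other B cells, and mitochondrial counts averaged 2.32% ± 0.555 against 2.44% ± 0.586. Ribosomal protein counts averaged 15.4% ± 1.37 in the members and 16.8% ± 2.23 in the other B cells. Of 13752 distinct cell barcodes, 96 occurred in more than 1 library, and 21 members carried such a barcode. Female 4 is represented by few cells.

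The heavy chains printed next show what was counted as mutation and as clonal relation in these cells. The sequences come from the contigs that the authors deposited. The first pair shows IGHV4-169, the IGHV gene used most by the members, from the start of the first to the end of the second complementarity-determining region in female 2. The mutated IgM cell is set against the sequence that recurs in that animal's unswitched cells, and capitals mark the bases where it differs.
IGHV4-169, mutated IgM cell of CD11c+ MBC 1: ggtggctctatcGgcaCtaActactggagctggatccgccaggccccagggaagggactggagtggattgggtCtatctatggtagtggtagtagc
IGHV4-169, common sequence of female 2: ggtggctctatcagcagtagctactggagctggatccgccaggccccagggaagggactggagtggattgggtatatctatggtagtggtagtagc
Counted from the 5′ end of this stretch of 96 bases, the substitutions were A13G, G17C, G20A and A74C, written with the base of the common sequence first. Over the whole sequenced IGHV region of 285 bases this cell had 10 differences, or 3.51 per 100 bases, which was also the median of the 24 mutated IgM members that used this gene. Another 2 IgM members of female 2 were identical to the common sequence.

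Clones were defined within an animal by the same IGHV and IGHJ genes, the same heavy CDR3 length and at least 85% identical CDR3 nucleotides. The following heavy CDR3 sequences show the largest clone made of CD11c+ MBC 1 cells alone and 3 of the 6 clones that also held a CD11c+ MBC 2 cell, the other subtype named for CD11c. Capitals mark bases that differ between the 2 cells of a clone.
male 2, IGHV2-174 with IGHJ4, CD11c+ MBC 1 alone: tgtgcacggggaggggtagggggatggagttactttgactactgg
female 1, IGHV4S15 with IGHJ4, CD11c+ MBC 1 cell: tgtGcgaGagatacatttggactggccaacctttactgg
female 1, IGHV4S15 with IGHJ4, CD11c+ MBC 2 cell: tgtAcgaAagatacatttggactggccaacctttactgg
female 2, IGHV4S15 with IGHJ4, CD11c+ MBC 1 cell: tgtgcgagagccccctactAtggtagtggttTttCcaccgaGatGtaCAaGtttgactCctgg
female 2, IGHV4S15 with IGHJ4, CD11c+ MBC 2 cell: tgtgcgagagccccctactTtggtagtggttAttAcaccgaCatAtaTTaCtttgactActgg
female 2, IGHV3-59 with IGHJ3, both cells: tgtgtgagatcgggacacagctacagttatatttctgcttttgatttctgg
The 4 cells of the male 2 clone had 1 identical CDR3, IgM or IgD constant regions and no differences from the common IGHV sequence. The female 1 pair was IgM in both subtypes, with 1.04 differences per 100 IGHV bases in the CD11c+ MBC 1 cell and 1.74 in the CD11c+ MBC 2 cell. The larger female 2 pair was IgG in both, with 9 differing CDR3 bases and 4.17 against 3.82 IGHV differences per 100 bases. The IGHV3-59 pair was IgM in both cells, with 2.11 and 2.46 differences per 100 IGHV bases.

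Levels of ITGAX and KCNIP3, the marker genes named for the label, come first. The subtype was annotated from these same expression values, so the levels describe it and are no independent check. Levels are CPM, that is, counts scaled to a common total of all named genes other than immunoglobulin genes in the summed cells of an animal. ITGAX had 607 CPM in male 1, 703 in male 2, 993 in female 1, 519 in female 2, 1023 in female 3 and 575 in female 4. Among the 12 B cell subtypes this mean, 737 ± 219 CPM, was second to 893 ± 271 in CD11c+ MBC 2, and the ranges over animals of the 2 subtypes overlapped. Naive B cells 2 followed with 462 ± 199 CPM, also overlapping, while M-MBC 1, an IgM memory subtype, had 245 ± 99.3 and Naive B cells 1 had 11.3 ± 4.19 CPM. KCNIP3, a calcium-binding protein of the neuronal calcium sensor family, had 35.7, 65.8, 114, 44.6, 123 and 105 CPM in the same order of animals. Its mean of 81.4 ± 37.5 CPM was again second to CD11c+ MBC 2, at 163 ± 93.9 CPM, and above C-MBC 1 at 18.8 ± 20.1 CPM, with overlapping ranges on both sides. The other 9 subtypes averaged 14.3 CPM or less. Both markers were thus present, at a lower mean than in CD11c+ MBC 2.

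Because sparse counts depend on depth, cells were also thinned to 2000 UMIs each, which left out 34 of 2236 members and 42 of 1614 Naive B cells 1. An ITGAX UMI was then found in 65.9% ± 10.9 of the members and in 1.73% ± 1.04 of Naive B cells 1, at median depths before thinning of 5434 and 4087 UMIs. Without thinning the shares were 88.3% ± 6.54 and 3.58% ± 1.75. KCNIP3 was found in 12.3% ± 4.48 of the thinned members, against 21.6% ± 9.27 in CD11c+ MBC 2, and in Naive B cells 1 in 0.0654% ± 0.160, a level read as background. CD3E, a T cell gene that B cells should lack, was found in 3.25% ± 2.42 of the thinned members and 1.73% ± 1.89 of Naive B cells 1.

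The subtype was annotated from the same expression values, so the differences from other subtypes that follow are a description and carry no test. Of 9410 genes, 457 stood above the average of the other subtypes in CD11c+ MBC 1 by a log2 difference of 1 or more with the same direction in every animal, which is 4.86% of genes. In the other direction 198 genes were lower, or 2.1%. That average weighs each other subtype alike, small ones included. Antibody-secreting cells entered from 3 animals with sums of 42655 to 95741 counts, and Naive B cells 3 from 4 animals with 20267 to 92861 counts. With Naive B cells 2 and 3 left out of the average, the median log2 difference over all genes was 0.0339 in place of 0.118. Among genes averaging at least 4 in log2 CPM, the 10 largest positive differences included CST7 (cystatin F, a protease inhibitor), TOX2 (a DNA-binding HMG-box factor), PTCH1 (the receptor of Hedgehog ligands) and AFAP1L2 (an adaptor of the actin cytoskeleton). CST7 had 179 ± 181 CPM in CD11c+ MBC 1, with 537 in female 3 and no more than 172 in any other animal, and a log2 difference of 4.61 ± 0.622 from the mean of the others (SD over 6 animals). TOX2 was even across animals, at 297 to 497 CPM, with 3.91 ± 0.384. PTCH1 had 19.4 to 123 CPM and a log2 difference of 3.94 ± 0.482. AFAP1L2 reached 142 CPM in female 2 and 5.99 in female 1, with a log2 difference of 4.21 ± 0.801. Its mean was 54.0 ± 46.3 CPM in CD11c+ MBC 1 and higher, at 96.0 ± 73.1 CPM, in CD11c+ MBC 2. The remaining leaders included KIR3DL0, a killer-cell immunoglobulin-like receptor gene, the Nogo receptor gene RTN4R, the neuropeptide gene NMB and METRNL, which encodes a secreted protein, with log2 differences of 3.55 to 4.74.

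The 10 largest negative differences among genes of that level were led by the complement receptor genes CR2 and CR1. CR2, which encodes CD21, averaged 0.718 ± 0.931 CPM in CD11c+ MBC 1 on 9 UMIs in all, against 72.6 ± 28.7 CPM in Naive B cells 1, and CR1 (CD35) averaged 4.21 ± 2.25 against 80.5 CPM. The low CR2 level was shared with CD11c+ MBC 2, at 0.353 ± 0.515 CPM, and M-MBC 2 had 3.47 ± 5.36 CPM. In CD11c+ MBC 1, CR2 was at 0 UMIs in male 2 and female 4. Thinned cells with a CR2 UMI made up 0.154% ± 0.201 of the members and 10.2% ± 4.78 of Naive B cells 1. JCHAIN, the joining chain of IgM and IgA polymers, averaged 8.39 ± 3.21 CPM, and MZB1, a chaperone of the secretory pathway, 6.84 ± 3.91 CPM. FCRL2, an Fc receptor-like gene, averaged 3.25 ± 1.44 CPM with a log2 difference of -3.28 ± 0.594. TMEM273, TPD52L1, PTPRN2, NIBAN3 and ST6GALNAC3 completed the 10, each averaging under 3 CPM in the members.

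**Figure D1:**
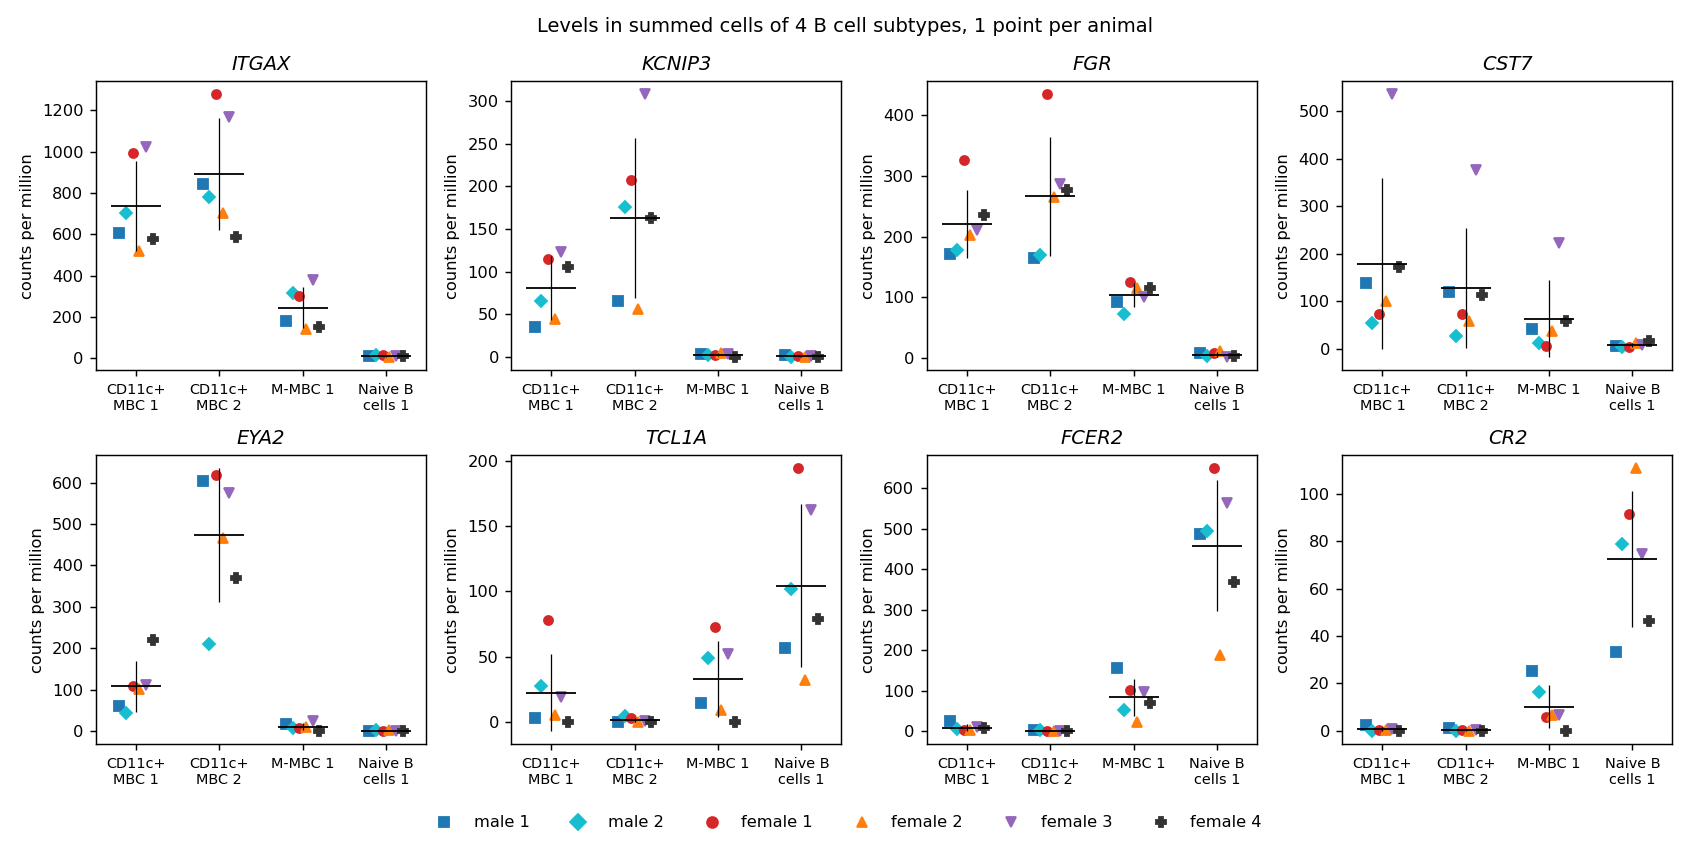
CPM of 8 genes in the summed cells of 4 B cell subtypes, 1 point per animal, with the mean as a horizontal and 1 SD as a vertical line (n = 6). ITGAX, KCNIP3, FGR and CST7 were high in both CD11c+ subtypes, EYA2 was highest in CD11c+ MBC 2, and FCER2 and CR2 were near 0 in CD11c+ MBC 1, at 9.10 and 0.718 CPM on average.

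Gene lists by function are given as counts of members past that limit, to be read beside 4.86% and 2.1% of all genes and without a test. In the list of genes associated with CD11c and T-bet in other species, 13 of 25 measured genes were higher and 0 lower, with a median log2 difference of 1.13 against 0.118 over all genes. They included TBX21 (T-bet itself, 34.1 ± 15.8 CPM), FGR (a Src family kinase, 221 ± 56.6 CPM), ZBTB32, TNFRSF1B and CD86. Set against CD11c+ MBC 2 alone, the median of the same list was -0.31. Among inhibitory co-receptors and phosphatases 6 of 14 were higher and 0 lower, led by LILRB1 at 155 ± 67.7 CPM and CD22 at 248 ± 79.0 CPM. LILRB1 stood above CD11c+ MBC 2 as well, where it averaged 67.0 CPM, in 6 of 6 animals. Of TNF family receptors and NF-kB genes 2 of 16 were higher and 6 lower, among them CD40, LTB and NFKB2. LTB, lymphotoxin beta, averaged 62.1 ± 38.4 CPM, against 490 CPM in Naive B cells 1.

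Further lists split within themselves. The list of genes reported low in CD11c+ B cells of other species had 2 of 11 lower, CR2 and FCRL1, and 2 higher, CD22 and the follicle-homing receptor CXCR5. CXCR5 averaged 435 ± 68.5 CPM in CD11c+ MBC 1, against 290 CPM in CD11c+ MBC 2 and 401 CPM in Naive B cells 1. CCR6, the receptor of the chemokine CCL20, averaged 92.2 ± 69.2 CPM with 225 in female 2. Memory B cell genes were higher for 7 of 18 and lower for 2, and EYA2, a transcriptional coactivator, had 108 ± 62.0 CPM against 474 in CD11c+ MBC 2. Naive B cell genes were lower for 2 of 16. FCER2, the low-affinity IgE receptor CD23, had 9.10 ± 8.66 CPM in CD11c+ MBC 1, against 1.26 in CD11c+ MBC 2 and 458 in Naive B cells 1. TCL1A, which encodes a binding partner of AKT kinases, varied widely, at 78.5 CPM in female 1, 27.7 in male 2, 19.2 in female 3, 5.003 in female 2, 2.505 in male 1 and 0 in female 4.

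Toll-like receptors and their signalling genes were higher for 3 of 16, among them TLR9, the receptor of unmethylated DNA, at 45.6 ± 14.4 CPM. Cytokine receptors and STATs were higher for 4 of 19 and lower for 2. SOCS1, an inhibitor of cytokine signalling, averaged 139 ± 56.6 CPM, while IL2RA, the alpha chain of the interleukin-2 receptor, had 7 UMIs in all members. Antigen presentation genes were higher for 5 of 15, led by CD1C (499 ± 315 CPM), IFI30 (2139 ± 219 CPM) and CD80 (85.2 ± 31.7 CPM). Transcription factors of effector B cells were higher for 7 of 19 and lower for IRF4 alone. Plasma cell and secretory genes were lower for 4 of 12 and higher for none. Integrins and adhesion genes divided evenly, with 3 of 15 higher (ITGAX, ITGAL and ITGB2) and 3 lower. ITGB2, the partner chain of CD11c, averaged 576 ± 167 CPM. BCR signalling genes were higher for 3 of 18 and lower for 1, and genes of the B cell identity list for 2 of 15 and 0.

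Interferon response genes were higher for 3 of 15, IFIT1, IFIT2 and MX2, and all of these were highest in female 2, at 203, 369 and 561 CPM. Immediate early genes were higher for 1 of 18 and lower for 4, including EGR1 at 67.9 ± 33.0 CPM. Fc receptor-like and Fc receptor genes were higher for 1 of 7 (FCRLA, 737 ± 355 CPM) and lower for 3, Src kinases and ITAM adaptors higher for 2 of 8, and chemokine receptors higher for 3 of 10 and lower for 1. Marginal zone genes were higher for 3 of 11 and lower for 3, BCL2 family genes lower for 1 of 11 (BCL2 itself, 187 ± 38.2 CPM), and cell cycle genes higher for 2 of 11 and lower for 1.

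Marker genes of other blood cells were measured in the members too. The summed T cell markers ranged from 139 to 323 CPM in CD11c+ MBC 1 and from 151 to 449 CPM in the other B cells, and were higher in the members in 3 of 6 animals. Monocyte markers summed to 224 to 372 CPM against 179 to 390 CPM, higher in 4 of 6 animals. NK cell markers summed to 22.2 to 533 CPM against 25.5 to 345 CPM, the highest value being that of female 4. Platelet and red cell markers were lower in the members in 6 of 6 animals, at 22.5 to 217 CPM against 22.6 to 307 CPM. Dendritic cell markers were higher in 6 of 6 animals, at 162 to 1029 CPM against 147 to 639 CPM, most of it CD1C, and CLEC9A, CLEC10A and FCER1A had 0 UMIs in the members. Of single markers, 3 of 13 measured for T cells (CD3G, CD2 and CD4), 1 of 5 for NK cells, 3 of 6 for monocytes, 1 of 3 for dendritic cells and 0 of 4 for platelets and red cells were higher past the limit, and none lower. The part of these markers in the differences above was not tested.

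Class and mutation were read in the receptor libraries, which are separate from the expression counts behind the annotation. Those counts held 23 named immunoglobulin genes, however, and M-MBC 1 is an IgM memory subtype by name. The labels may thus not be independent of class, which was not tested. Exactly 1 productive heavy chain was found in 1848 members, 2 in 45 and none in 343. Of 1831 members with 1 heavy chain of known class, 1018 were IgM, 381 IgD, 426 IgG and 6 IgA. The switched share was 18.5% in male 1, 13.6% in male 2, 22.1% in female 1, 25.9% in female 2, 28.3% in female 3 and 68.6% in female 4. Female 4 rested on 51 cells, with an exact binomial interval of 54.1% to 80.9%, and the remaining animals averaged 21.7% ± 5.85 (n = 5). The mean over all animals was 29.5% ± 19.9, against 68.5% ± 17.2 in CD11c+ MBC 2, 9.08% ± 4.66 in M-MBC 1 and 0.455% ± 0.557 in Naive B cells 1. CD11c+ MBC 1 was below CD11c+ MBC 2 in 6 of 6 animals, by 39.0 ± 10.4 percentage points. It was higher in 6 of 6 animals than in M-MBC 1, and likewise than in Naive B cells 1.

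The exact sign-flip permutation test over animals gave p = 0.0312 (two-sided) for each of these 3 differences, the smallest value that 6 animals allow. Adjusted by Benjamini-Hochberg over the family of 21 receptor comparisons, they stood at 0.0729, and no comparison of the family passed 0.05 by this exact permutation test. With 5 animals the smallest p is 0.0625. In 9 of the 21 comparisons the unadjusted p reached 0.0312. The 3 comparisons of a measure share the CD11c+ MBC 1 cells. Within the males the mean differences in switched share from CD11c+ MBC 2, M-MBC 1 and Naive B cells 1 were -39.8, 8.66 and 15.8 percentage points, and within the females -38.7, 26.3 and 35.7. A receptor difference with 1 sign in every animal has that sign within both batches by necessity, so the signs say nothing further about batch.

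IgD constant regions split the subtypes in another way. A cell counted as IgD when its 1 heavy chain contig had that constant region, although unswitched B cells can carry IgM and IgD together. Even in Naive B cells 1 the IgD share ran from 11.9% in female 1 to 63.2% in female 2. IgD calls made up 19.1% ± 11.9 of CD11c+ MBC 1, against 3.49% ± 2.76 of CD11c+ MBC 2, 30.9% ± 18.6 of M-MBC 1 and 30.3% ± 17.9 of Naive B cells 1. The share was above CD11c+ MBC 2 and below M-MBC 1 in 6 of 6 animals (exact permutation p = 0.0312 each, adjusted 0.0729) and below Naive B cells 1 in 5 of 6 (exact permutation p = 0.0625, adjusted 0.0938). Animals differed as much as subtypes did, with 36.1% in female 2 and 3.92% in female 4. Without female 4 the mean differences were 17.9, -10.2 and -9.94 percentage points, and with it 15.6, -11.8 and -11.2.

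**Figure D2:**
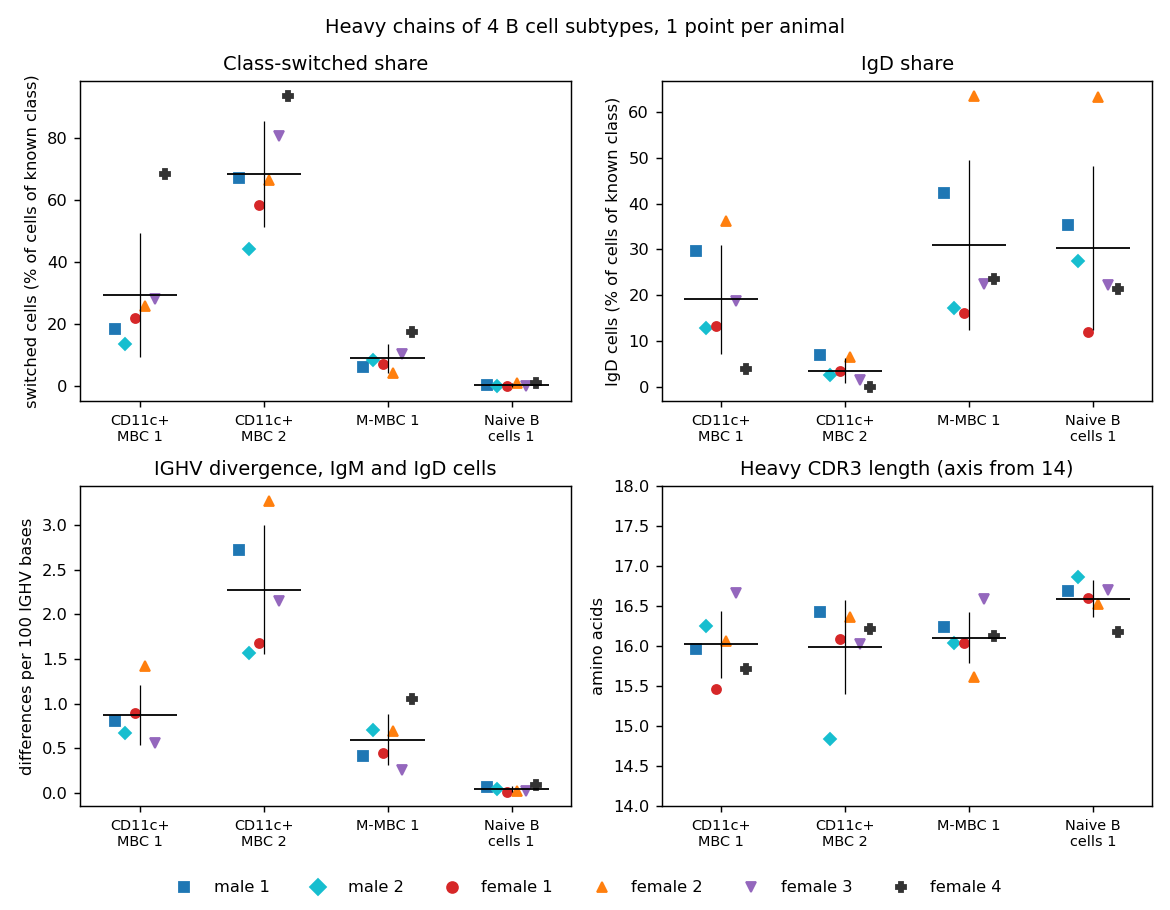
Heavy chain measures of 4 subtypes, 1 point per animal with at least 10 usable cells, with the mean as a horizontal and 1 SD as a vertical line. The panels give the switched share and the IgD share in percent of cells of known class, IGHV differences per 100 bases of unswitched cells, and heavy CDR3 length in amino acids on an axis that starts at 14. Switched shares of CD11c+ MBC 1 lay between 13.6% and 28.3% except in female 4, at 68.6%.

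Mutation was counted per 100 bases of the sequenced IGHV gene, against the closest common sequence of that animal, one seen with at least 3 different rearrangements in unswitched cells. Unswitched members averaged 0.869 ± 0.335 over the 5 animals with at least 10 such cells. The values were 0.802 in male 1, 0.675 in male 2, 0.890 in female 1, 1.42 in female 2 and 0.555 in female 3. CD11c+ MBC 2 had 2.28 ± 0.718, above CD11c+ MBC 1 in 5 of 5 animals (exact permutation p = 0.0625, adjusted 0.0938). Naive B cells 1 had 0.0358 ± 0.0241, below it in 5 of 5 (exact permutation p = 0.0625, adjusted 0.0938). M-MBC 1 had 0.506 ± 0.192, and CD11c+ MBC 1 was higher in 4 of 5 animals by 0.363 ± 0.275, which did not pass (exact permutation p = 0.125, adjusted 0.175). That last difference averaged 0.176 within the males, with 1 of 2 higher, and 0.487 within the females, with 3 of 3 higher. With all classes together the mean was 1.44 ± 0.780 in CD11c+ MBC 1, against 0.697 ± 0.301 in M-MBC 1, and higher in 6 of 6 animals (exact permutation p = 0.0312, adjusted 0.0729). Female 4 had 2.80 on 16 cells, and without it CD11c+ MBC 1 averaged 1.17, with a difference from M-MBC 1 of 0.579 in place of 0.743.

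The mean covers a population in parts. Among unswitched members 61.1% ± 9.32 carried no difference at all, from 50.6% in female 2 to 73.7% in female 3, and 27.2% ± 7.81 carried 1 or more per 100 bases. The same shares were 29.5% ± 12.9 and 56.9% ± 15.9 in CD11c+ MBC 2, 67.3% ± 13.5 and 21.9% ± 11.1 in M-MBC 1, and 94.9% ± 5.64 and 1.24% ± 0.917 in Naive B cells 1 (n = 5 for both CD11c+ subtypes, 6 for the others). IgM members averaged 0.972 ± 0.387 differences and IgD members 0.652 ± 0.350 (n = 5 each). IgG members averaged 2.29 ± 0.901 differences (n = 6), with 28.9% ± 13.8 of them at 0, against 5.47 ± 1.35 (n = 5) and 6.99% ± 6.71 in CD11c+ MBC 2 and 1.48 ± 0.213 (n = 4) and 45.4% ± 6.78 in M-MBC 1. These class-wise values were not tested, and IgM and IgD are contig calls as described above.

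**Figure D3:**
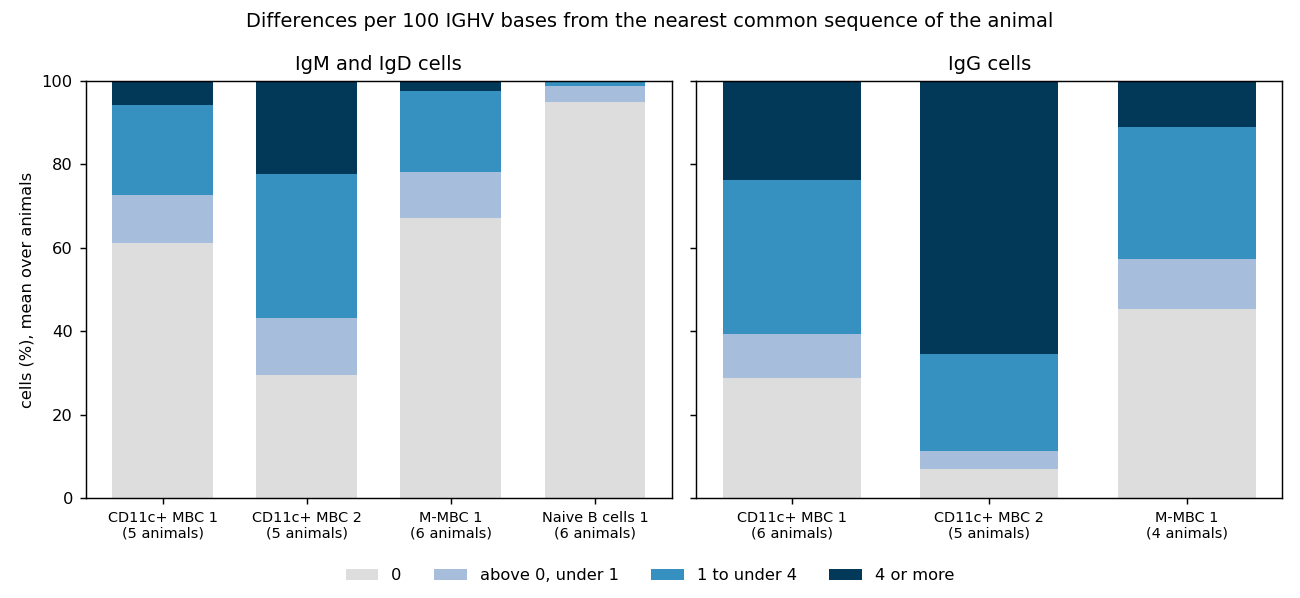
Shares of cells by differences per 100 IGHV bases from the nearest common sequence, as means over the animals with at least 10 such cells, for IgM and IgD cells and for IgG cells. In CD11c+ MBC 1 the part with no difference was 61.1% of unswitched and 28.9% of IgG cells, in CD11c+ MBC 2 29.5% and 6.99%.

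Heavy CDR3 loops averaged 16.0 ± 0.415 amino acids in CD11c+ MBC 1 and 16.6 ± 0.232 in Naive B cells 1, shorter in 6 of 6 animals by 0.574 ± 0.357 (exact permutation p = 0.0312, adjusted 0.0729). Differences in CDR3 length from CD11c+ MBC 2 (0.0282 ± 0.813) and M-MBC 1 (-0.0859 ± 0.392) were smaller than their spread over animals. Kappa light chains made up 45.9% ± 7.21 of members with 1 heavy chain and 1 kind of light chain, against 49.9% ± 11.2 in CD11c+ MBC 2, 50.1% ± 13.3 in M-MBC 1 and 44.4% ± 5.41 in Naive B cells 1, with signs mixed over animals in all 3 comparisons. Cells in clones of 2 or more made up 2.72% ± 1.59 of CD11c+ MBC 1 and 8.38% ± 4.49 of CD11c+ MBC 2, lower in 6 of 6 animals (exact permutation p = 0.0312, adjusted 0.0729). In M-MBC 1 the share was 4.02% ± 4.04, with 11.8% in female 4 on 34 cells, and the difference of CD11c+ MBC 1 from it was -1.29 percentage points with female 4 and 0.408 without. In Naive B cells 1 the share was 0.897% ± 1.03, and CD11c+ MBC 1 was higher in 3 of 6 animals than M-MBC 1 and in 5 of 6 than Naive B cells 1.

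The clones with a CD11c+ MBC 1 cell numbered 39 and held 51 of the 1848 members with 1 heavy chain. Most, 35, were pairs, and the largest was the male 2 clone of 4 cells printed above. Only CD11c+ MBC 1 cells were found in 9 of them. Partners were M-MBC 1 in 10 clones, M-MBC 2 in 7, CD11c+ MBC 2 in 6, Activated B cells and C-MBC 1 in 3 each, and C-MBC 2, M-MZL BC and Naive B cells 2 in 1 each. The pools of cells with 1 heavy chain differed in size, at 1860 for M-MBC 1, 782 for M-MBC 2 and 1028 for CD11c+ MBC 2, so the clone counts give no order of relatedness. Both switched and unswitched cells occurred in 2 of the 39 clones, and 1 held both kappa and lambda cells.

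IGHV use was compared with Naive B cells 1, cells that carry few mutations. Of 46 IGHV genes tested with edgeR's quasi-likelihood test with the animal as a block, 2 were called, or 4.35%. IGHV4-169, the gene of the sequences shown first, was used by 7.57% of members in male 1, 5.62% in male 2, 1.77% in female 1, 4.35% in female 2, 9.74% in female 3 and 7.84% in female 4. In Naive B cells 1 its share was 3.65%, 1.69%, 1.23%, 1.12%, 5.21% and 4.49% in the same order. It was higher in 6 of 6 animals, with a log2 change of 1.076 ± 0.264 (SE, edgeR adjusted p = 0.0124). IGHV1S2 was called lower, at -1.53 ± 0.406 (edgeR adjusted p = 0.0190), but occurred in male 1 and female 3 alone, on 12 members and 30 naive cells. Without male 1, 0 genes were called. The next most used genes, IGHV4-173, IGHV4-122, IGHV3-103 and IGHV4-80, made up 3.64% to 5.09% of members and did not pass.

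Within the subtype, mutated unswitched cells (1 or more difference per 100 bases) were compared with unmutated ones by expression, a contrast that the annotation did not use. Here unmutated means under 1 difference per 100 bases, so some of these cells carried a difference. Sums of 62 to 69 mutated and 108 to 315 unmutated cells per animal entered from 5 animals, since female 4 had 4 mutated cells. All these cells were unswitched and of the same annotated subtype, but IgM and IgD cells were pooled, and the IgD share was lower in mutated cells in 5 of 5 animals. Of 7346 genes tested with edgeR, 169 were called at an adjusted p under 0.05, or 2.3%, of which 96 rose and 73 fell in mutated cells. The direction was the same in all 5 animals for 121 of these. DESeq2 called 36, and without the animal as a block 0 were called. Mutated cells were similar in depth and quality, at 5606 ± 1532 and 5537 ± 1489 median UMIs and 2.33% ± 0.579 and 2.26% ± 0.570 mitochondrial counts for mutated and unmutated cells.

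DLGAP1, a scaffold gene best known from synapses, rose most clearly. It had 420, 1039, 595, 192 and 160 CPM in the mutated cells of males 1 and 2 and females 1 to 3, against 109, 121, 129, 56.3 and 50.6 CPM in their unmutated cells. The 2 sets did not overlap, and the log2 change was 2.24 ± 0.127 (SE, edgeR adjusted p = 1.94e-20, higher in 5 of 5 animals). CD86, the costimulatory ligand of CD28, had 555, 672, 524, 389 and 318 CPM in mutated cells, against 334, 310, 263, 257 and 146 CPM in unmutated cells, a log2 change of 0.91 ± 0.0905 (edgeR adjusted p = 7.73e-11). LGALS3, galectin-3, had 47.4 to 149 CPM against 11.8 to 62.3 CPM, up by 1.90 ± 0.219 (edgeR adjusted p = 5.13e-09). In CD11c+ MBC 2, whose unswitched cells carried more mutations, these genes averaged 360, 847 and 84.4 CPM.

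Among memory B cell genes 8 of 15 measured rose and 0 fell, where 96 of all 7346 genes tested rose and 73 fell. S100A6, a calcium-binding protein, averaged 514 ± 232 CPM in mutated and 239 ± 67.2 CPM in unmutated cells (log2 change 1.15 ± 0.132, edgeR adjusted p = 5.38e-09), and S100A10, VIM, S100A4, ANXA2, ANXA4, CD80 and EYA2 rose as well. The CD11c and T-bet list divided, with 4 of 21 up (CD86, TFEC, ZBTB32 and CD68) and 3 down (LILRB1, TOX and EMP3). LILRB1, an inhibitory receptor for MHC class I, averaged 119 ± 37.0 CPM in mutated and 200 ± 69.8 CPM in unmutated cells, lower in 5 of 5 animals. ITGAX and KCNIP3 did not pass. ITGAX averaged 709 ± 166 CPM in mutated and 779 ± 253 CPM in unmutated cells, with a log2 change of -0.12 ± 0.0710, and KCNIP3 averaged 87.4 ± 53.4 against 70.8 ± 34.2 CPM.

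SOX4, an HMG-box transcription factor, fell. Its mutated cells had 30.5, 29.6, 22.6, 19.0 and 20.7 CPM, against 130, 63.1, 45.3, 83.6 and 111 CPM in unmutated cells, with no overlap and a log2 change of -1.86 ± 0.219 (edgeR adjusted p = 7.97e-09). AUTS2, a chromatin-associated gene, averaged 46.2 ± 27.9 CPM in mutated and 152 ± 31.4 CPM in unmutated cells, and fell in 5 of 5 animals. TCL1A fell by 1.61 ± 0.348 on the log2 scale on 20 and 174 UMIs, and was the single naive B cell gene of 14 to pass. The lists that follow stand beside 73 falls and 96 rises among all 7346 genes tested. B cell identity genes fell for 4 of 15 and rose for none, among them CD79A, MS4A1 and EBF1, with CD79A at 1965 ± 350 CPM in mutated and 2341 ± 472 CPM in unmutated cells. Inhibitory co-receptors fell for 3 of 12 (LILRB1, LAIR1 and CD72), and antigen presentation genes fell for 3 of 15 (CD74, CTSH and IFI30) and rose for 2, CD80 and CD86. Among genes with 1 sign in every animal and a mean log2 CPM of at least 4, SNTB1, ITGAV and SLAMF1 were also among the 6 largest falls, and ACOT7, SULF2, ATRNL1 and GPR153 among the 6 largest rises.

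**Figure D4:**
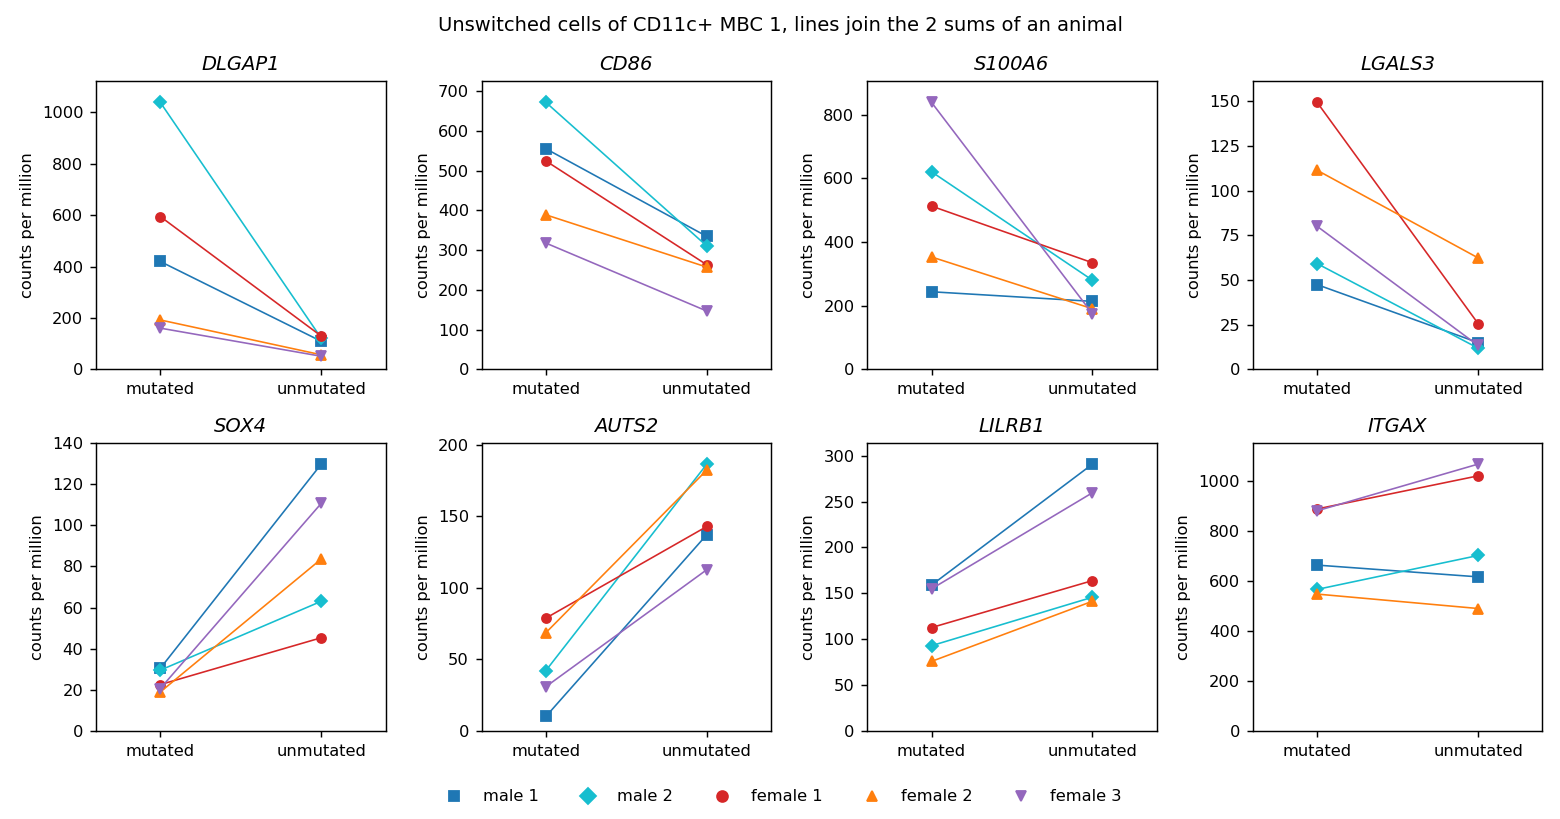
CPM of 8 genes in mutated (left) and unmutated (right) unswitched cells of CD11c+ MBC 1, with a line joining the 2 sums of each of 5 animals. DLGAP1, CD86, S100A6 and LGALS3 were higher and SOX4, AUTS2 and LILRB1 lower in mutated cells of every animal, while ITGAX went both ways.

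Of the 39 calls named by rule, ITGAV, SLAMF1, MS4A1, CCR6, LAIR1, CD72, TYROBP, NOD2, CD80, BHLHE40, ZBTB32, DUSP1, BBC3, BCL2, CD3G and CST3 were lost when 1 or another animal was left out, and the other 23 were kept. S100A4, ANXA2, ANXA4, EYA2, CD68, EMP3, EBF1, CD74 and CTSH were not among the 39, and their leave-out results are not given. Other lists had 2 or fewer members called in a direction, beside 96 rises and 73 falls among all 7346 genes tested. BCL2 family genes rose for 2 of 11 (BCL2 and BBC3), Toll-like receptor signalling for 1 of 11 (NOD2), integrins and adhesion for 1 of 11 (CD44), and Src kinases and ITAM adaptors for 1 of 8 (TYROBP, which was higher in 3 of 5 animals). The chemokine receptor CCR6, the Fc receptor-like gene FCRL1 and the immediate early gene DUSP1 fell, as did BHLHE40 and TOX among transcription factors. T cell markers moved with mutation: CD3D and CD3G rose among 9 tested, and the summed T cell list was 176 to 341 CPM in mutated and 106 to 227 CPM in unmutated cells, higher in 4 of 5 animals. Monocyte markers summed to 308 to 627 CPM in mutated and 211 to 358 CPM in unmutated cells, higher in 5 of 5 animals, with TYROBP and CST3 called and S100A8, FCN1 and CD163 at 0 UMIs in mutated cells. Their part in the calls was not tested.

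Receptor traits of the mutated cells are given as values. Their heavy CDR3 averaged 15.4 ± 0.423 amino acids, against 16.3 ± 0.653 in unmutated cells, IgD made up 23.9% ± 12.3 against 30.4% ± 14.9, and 5.15% ± 3.24 against 2.12% ± 1.46 were in clones of 2 or more cells (n = 5 each).

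Switched members were compared with unswitched ones of the same animal, with 16 to 401 cells per sum and all 6 animals. The switched cells also carried more IGHV differences in every animal, at 2.34 ± 0.842 against 1.05 ± 0.538 per 100 bases (n = 6). In female 4 these values rested on 11 and 5 cells. Class and mutation were thus not separated, and the part of mutation in the calls was not tested. Of 7925 genes 60 were called by edgeR, or 0.757%, with 27 higher and 33 lower in switched cells, and 30 had the same direction in 6 of 6 animals. DESeq2 called 10, and 0 were called in an unpaired fit. EYA2 had 100, 49.5, 180, 168, 180 and 278 CPM in switched cells of males 1 and 2 and females 1 to 4, against 40.0, 35.0, 79.9, 44.4, 68.0 and 45.2 CPM in unswitched cells. It was higher in every animal, by a log2 change of 1.46 ± 0.134 (SE, edgeR adjusted p = 5.36e-16). SPAG16, a gene of the ciliary axoneme, averaged 509 ± 185 CPM in switched and 266 ± 105 CPM in unswitched cells, a change of 0.95 ± 0.0835 (edgeR adjusted p = 5.62e-17). Both genes averaged more in CD11c+ MBC 2, at 474 and 840 CPM, and less in Naive B cells 1, at 0.837 and 16.5 CPM.

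Transcription factors of the CD11c and T-bet list went in both directions. TOX, an HMG-box factor, averaged 213 ± 125 CPM in switched and 126 ± 108 CPM in unswitched cells, up in 6 of 6 animals by 0.63 ± 0.111 (edgeR adjusted p = 6.16e-05). SOX5, another HMG-box factor, averaged 593 ± 165 against 819 ± 214 CPM, down in 6 of 6 animals by a log2 change of -0.45 ± 0.0732 (edgeR adjusted p = 1.22e-05). The other 20 of the 22 genes tested in that list did not pass, ITGAX among them at 756 ± 241 CPM in switched and 757 ± 208 CPM in unswitched cells. PTPRJ, a receptor phosphatase that acts on Src kinases, fell by 1.00 ± 0.175 on the log2 scale in 6 of 6 animals, and among genes with 1 sign in every animal and a mean log2 CPM of at least 4 the other largest falls were in ATRNL1, HHIPL1, FUOM, HDAC9 and KCNQ5. The largest rises of such genes, besides EYA2 and SPAG16, were in VWC2L, APBA1, the peptidoglycan sensor NOD2 and PLBD1, with log2 changes of 0.85 to 1.58.

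TYROBP, an ITAM adaptor also known as DAP12, had 76.2, 276, 43.5, 90.1, 52.5 and 96.4 CPM in switched cells, against 158, 221, 226, 185, 210 and 350 CPM in unswitched cells. It was lower in 5 of 6 animals, with a log2 change of -1.35 ± 0.144 (edgeR adjusted p = 1.40e-12), and male 2 went the other way. Immediate early genes rose for 4 of 17 (FOS, EGR1, CD69 and DUSP2), with EGR1 at 169 ± 181 CPM in switched and 37.3 ± 37.4 CPM in unswitched cells, higher in 5 of 6 animals. Interferon response genes fell for 2 of 14, ISG15 and IFI6, and of all 7925 genes tested 27 rose and 33 fell. ISG15 was highest in female 2, at 235 CPM in switched and 408 CPM in unswitched cells, and was not called without that animal (edgeR adjusted p = 0.795). The cytotoxic protease gene GZMB fell, but 983 CPM of its level stood in the unswitched cells of female 4, against 0 to 78.2 CPM in any switched sum, and the call was lost without that animal (edgeR adjusted p = 0.703). NK cell markers summed to 10.7 to 212 CPM in switched and 26.2 to 1684 CPM in unswitched cells, and monocyte markers to 164 to 389 against 265 to 633 CPM, both lower in switched cells in 5 of 6 animals. T cell markers, with IL7R called, summed to 77.8 to 522 against 145 to 283 CPM and were higher in 1 of 6 animals. Their part was not tested. VWC2L, EYA2, SPAG16, PLBD1, FUOM, PTPRJ, KCNQ5, SOX5, TOX, TYROBP and EGR1 kept their call whichever animal was left out, 11 of 27 named by rule, and the rest of the 27 lost it without at least 1 animal. CD69 was not among the 27, and its leave-out result is not given.

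**Figure D5:**
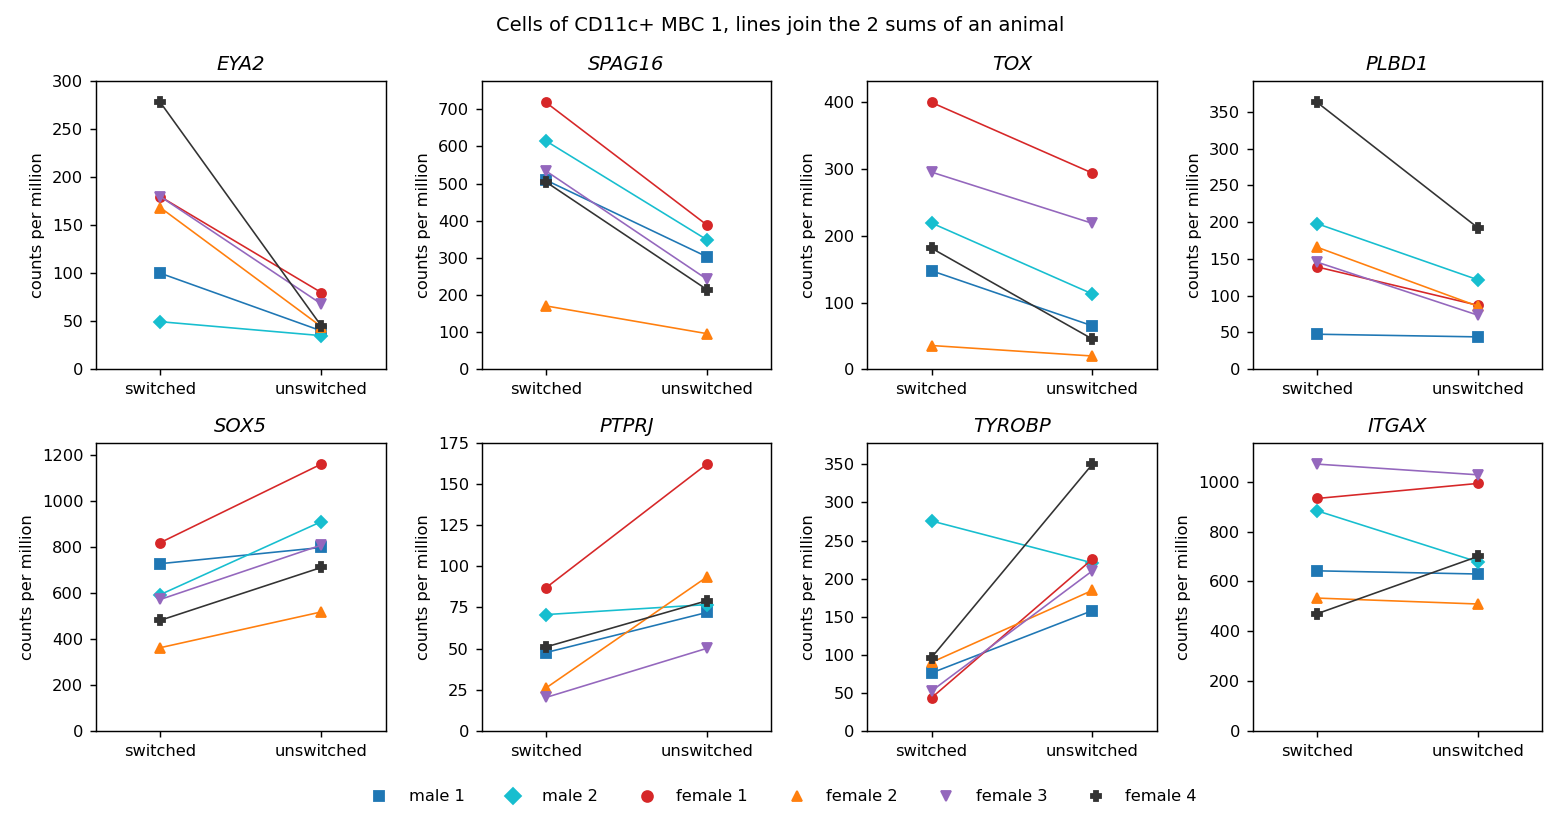
CPM of 8 genes in switched (left) and unswitched (right) cells of CD11c+ MBC 1, with a line joining the 2 sums of each of 6 animals. EYA2, SPAG16, TOX and PLBD1 were higher and SOX5 and PTPRJ lower in switched cells of every animal, TYROBP was lower in 5 of 6, and ITGAX went both ways.

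The contrasts of mutation and of class share unswitched cells, so their calls are not compared with each other.

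Light chain made little measured difference. Of 8080 genes 3 were called between kappa and lambda cells, or 0.0371%. S100A6 was higher in kappa cells in 5 of 6 animals, at 382 ± 160 against 274 ± 57.4 CPM. The cytotoxic granule genes GZMB and GNLY were called lower, each lower in 4 of 6 animals and higher in 2. They had 493 and 206 CPM in the lambda cells of female 4. Without female 4, 0 genes were called by edgeR, DESeq2 called 0 with all animals, and 354 genes had an unadjusted edgeR p under 0.05. NK cell markers summed to 16.9 to 115 CPM in kappa and 25.4 to 861 CPM in lambda cells, higher in kappa cells in 0 of 6 animals, and their part was not tested.

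Males and females differed in 24 of 8987 genes by edgeR, or 0.267%, 20 higher and 4 lower in the 2 males. The largest rises were Y-linked genes, RPS4Y1 at 1322 ± 17.02 CPM in males and 0 in females, DDX3Y, RPS4Y2, UTY, USP9Y and EIF1AY. The 4 genes that fell were JUNB (115 ± 13.3 against 996 ± 400 CPM), SERP1 (45.6 ± 1.88 against 298 ± 58.0 CPM), PITPNA and LAIR1. JUNB is an immediate early transcription factor and SERP1 an endoplasmic reticulum stress protein. JUNB, PITPNA and LAIR1 lost their call in 5 of 6 leave-outs and SERP1 without either male. T cell markers summed to 139 to 157 CPM in males and 159 to 323 CPM in females, and platelet and red cell markers to 22.5 to 77.5 and 128 to 217 CPM, and their part was not tested. Batch moved with sex in full, so the source of these differences cannot be told apart. ITGAX had 655 ± 67.4 CPM in males and 778 ± 267 CPM in females, and KCNIP3 50.7 ± 21.3 and 96.7 ± 35.5 CPM, and neither passed.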

How the data were processed

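Gene expression and B cell receptor contigs were measured in 1 library of each kind per animal. The authors deposited counts of UMIs per gene and cell, a cell table with subtype names and the percent of mitochondrial and ribosomal counts, and contig tables. The tools named per the submitters' processing notes were Cell Ranger 9.0.1, Seurat 5.0.1 and R 4.3.1, and the build of the genome was not given in the sources used here. All 13849 deposited cells carry the authors' singlet call, so no doublet caller was run.

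Raw counts were summed per animal and subtype or class, with sums of under 10 cells left out. The 5813 identifiers without a gene name (14.9% of UMIs) and 23 immunoglobulin genes were excluded. edgeR 4.0.16 (R 4.3.3, TMM scaling, low counts filtered, quasi-likelihood F test, Benjamini-Hochberg) was run over all genes with the animal as a block, since the 2 sums compared come from the same animal. Tested on simulated data, the class contrast recovered 83% of genes changed by 1 on the log2 scale and the mutation contrast 76%. False calls were 1 of 182 and 5 of 179. The changed genes averaged at least 4 in log2 CPM, changed alike in every animal and had 1 spread for all genes. These rates therefore do not cover genes with lower counts, uneven changes or a larger spread. The permutation p-values rest on the differences of the single animals. Where every animal has the same sign they take the smallest possible value, whatever the spread. The p-values of edgeR also rest on a spread shared over genes, so a call can come with mixed signs. For class, CST3 was called with 3 animals higher and 3 lower (edgeR adjusted p = 0.000812). Receptor measures used cells with exactly 1 productive heavy chain and exact sign-flip permutation tests. Alternatives were RLE scaling, no filter, DESeq2 1.42.0, kept identifiers, left-out animals, other references, clone rules and cell classes.

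Genes named were the 10 with the largest log2 difference in each direction that had 1 sign in every animal and averaged at least 4 in log2 CPM, and the 3 largest of each list; within the subtype, up to 6 called genes in each direction and up to 3 called genes of each list. Other called list members given by name were chosen after their values were seen. The members and lists were chosen with earlier results of these data known. Some genes that met these rules are not reported here.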

Additional observations from a re-analysis of the deposited data

Results flagged for a closer look

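A single animal stood far from the other 5 in 19 of 91 measures and named genes of CD11c+ MBC 1, by the gap to the nearest animal as a share of the whole range, where chance gives about 1 in 20 for values with a regular spread. That rate does not hold for genes at a few UMIs, such as TLR4 (1 UMI), PTPRN2 (8), CR2 (9) and TPD52L1 (11 UMIs). The switched share was 68.6% in female 4. Female 4 was also high for GZMA (35.1 CPM) and GZMB (309 CPM), and had the 1 UMI of TLR4 (3.51 CPM). Female 2 was high for AFAP1L2 (142 CPM), BAK1 (38.7), CCR6 (225), METRNL (941), TNFRSF13B (407) and the interferon response genes IFIT1 (203), IFIT2 (369) and MX2 (561 CPM). Male 1 was high for CR2 (2.505 CPM), FCER2 (25.7), PTPRN2 (3.13) and TPD52L1 (3.76 CPM). CST7 was high in female 3 (537 CPM), MYC in male 2 (26.3 CPM) and TCL1A in female 1 (78.5 CPM).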

How the results depend on the processing

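Of the alternatives to the results that answer a comparison, 204 kept direction and side of the threshold or a count within 1.5 times, 28 counts moved by more and 6 differences changed sign. For the receptor comparisons the side of the threshold could not change when an animal was left out. None passed with all animals, and with 5 animals the smallest exact permutation p is 0.0625. Only their direction could differ there. Without the animal block, an unpaired fit, 0 genes were called for class, mutation and light chain, and 0 IGHV genes. DESeq2 called 10 for class, 36 for mutation, 0 for light chain and 102 for sex. All of its 10 and 36 calls were among those of edgeR. With unnamed and immunoglobulin genes kept, 39 were called for class and 82 for light chain, and without a filter 138 for sex. Common sequences taken from Naive B cells 1 alone gave 67 for mutation, of which 61 were called before. Leaving out 1 animal at a time gave 21 (without female 2) to 64 for class, with 32 without female 3 and 35 without male 2, and 83 (without female 3) to 141 for mutation, with 112 without male 2. For light chain it gave 0 to 4, with 1 without female 1 or female 3, and for sex 7 (without male 1) to 185 (without female 2), with 15 without female 1 or female 3. For IGHV genes it gave 0 to 2, with 1 without female 3. Against all other B cells 0 IGHV genes were called, and in unswitched cells 1.

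Differences near 0 changed sign when 1 animal was left out, and none of them passed with all animals. CDR3 length ranged from -0.2486 to 0.1578 amino acids against CD11c+ MBC 2 and from -0.1933 to 0.0103 against M-MBC 1. Kappa share ranged from -6.99 to 0.142 percentage points against CD11c+ MBC 2 and from -0.0307 to 3.44 against Naive B cells 1, and the clonal share against M-MBC 1 from -2.05 to 0.408. On the log2 scale, ITGAX ranged from -0.015 to 0.0633 between classes (-0.0085 without a filter) and from -0.3327 to 0.0483 between sexes, and KCNIP3 from -0.0509 to 0.1567 between classes. Against the other subtypes HBA ranged from -0.8224 to 0.1043 and PF4 from -0.4568 to 0.3922. The cause was not tested. Of the calls named by rule, 23 of 39 for mutation and 11 of 27 for class held whichever animal was left out. Sums of few cells limit low genes: 16 unswitched cells stood behind female 4. The mean switched share without female 4 was chosen after seeing the data.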
